A study of Mus musculus with 7 samples.

Results

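Adult mouse lung was set against adult mouse intestine, gene by gene, on 1 array each. A gene entered the comparison when its signal was well above background on at least 1 of the 2 arrays, by the scanner software's flag, and this held for 14672 of the 17047 genes named on the arrays of the whole series. Of these, 12909 were above background in both organs, 390 in lung alone and 1373 in intestine alone, while 2239 genes with usable spots on both arrays were above background in neither and were left out. The lowest signal called above background was higher on the lung array than on the intestine array, and its part in the 390 and 1373 was not tested. The series holds 7 samples on one-colour arrays, of embryonic stem cell-derived stomach tissue, embryonic stomach and 4 adult organs, and was made to characterise the derived tissue. Both organs came fresh from ICR mice, an outbred stock, without culture or treatment, and total RNA of the organ was labelled with the dye Cy3. The labels give no age beyond adult, no sex, no number of animals and no segment of the intestine. Adult esophagus and adult stomach lay on the same slide as lung and intestine and are used below only to place the levels of these 2 organs.

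Lung and intestine are both derived from the endoderm and both line a large surface against the outside. The lung exchanges gas across thin alveolar type 1 cells laid against capillaries, while type 2 cells secrete surfactant, a film of lipid and protein that keeps alveoli open, and ciliated and club cells line the airways. The intestine digests and absorbs food through enterocytes carrying a brush border of microvilli, with goblet cells making mucus, Paneth cells secreting antimicrobial peptides, and a coat of smooth muscle that moves the content.

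A level is the log2 of the background-corrected intensity minus the 75th percentile of that array, so that 0 is the 75th percentile, and a difference is lung minus intestine. Where a gene was not well above background in 1 organ, its fold is a lower bound for the probe used, written as at least. With 1 array for each organ there is no spread between animals and no test, so sizes and counts describe these 2 arrays. Different probes of the same gene give a technical yardstick. Among 4388 genes with several probes above background in both organs, the standard deviation between probes of the difference was 0.597 on the log2 scale. Each gene is represented by its brightest probe, taken as the highest mean level across all arrays of the series. Other probes of genes at least 4-fold apart, counted only where they were above background in both organs, went the same way in 757 of 792 cases (95.6%).

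In lung, 1453 genes were at least 4-fold higher than in intestine, which is 9.90% of the genes compared, and in intestine 1616 were at least 4-fold higher than in lung, which is 11.0%. Together these are 20.9% of the genes. Among named genes the largest differences were more numerous on the intestinal side, with 516 genes at least 16-fold higher in intestine against 386 in lung, and 230 against 121 at 64-fold. Among 10594 probes without a gene name that were above background in at least 1 of the organs, the balance was the opposite, with 1552 at least 4-fold higher in lung and 615 in intestine. The majority, 8165 genes (55.7%), lay within 2-fold, and the median difference over all genes was -0.04. Lower bounds made up 266 of the lung calls and 367 of the intestinal calls. When arrays were scaled to their median in place of the 75th percentile, 37.0% of the called genes were higher in lung in place of 47.3%.

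**Figure D1:**
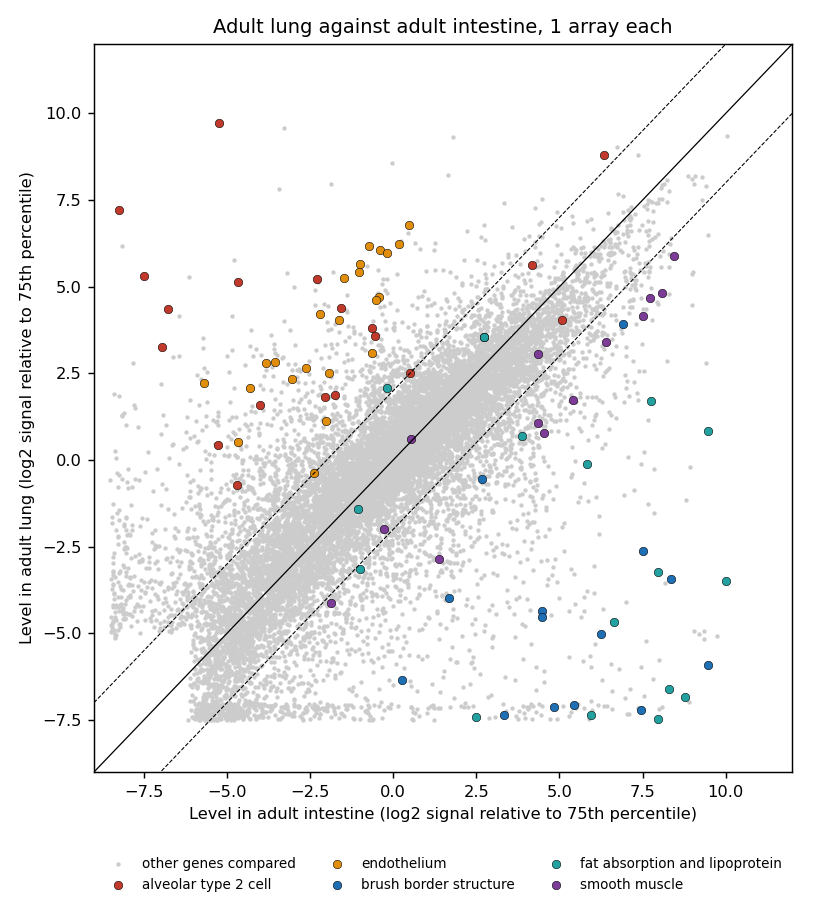
Each point is 1 of the 14672 genes compared, with its level in adult intestine on the horizontal axis and in adult lung on the vertical axis, both as log2 signal relative to the array's 75th percentile. The solid line marks equal levels and the dashed lines a 4-fold difference; genes of alveolar type 2 cells and endothelium lie mostly above the lines, and genes of the brush border, of fat absorption and of smooth muscle lie mostly below.

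The labels were checked against marker lists before anything else. Sftpc, the gene of surfactant protein C, was at 9.71 in lung and -5.24 in intestine. Vil1, the gene of the microvillus protein villin, was at 8.34 in intestine and -3.42 in lung. Each array thus carried the marker of its own organ at high level, though Sftpc was also at 5.12 in esophagus. The RNA was that of organ tissue with many cell types. Fewer cells of a type and less RNA per cell therefore cannot be told apart in any of the results that follow.

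Alveolar genes were higher in lung by a wide margin. Of 20 genes of alveolar type 2 cells, all of them compared, 18 were at least 2-fold higher in lung, where 21.6% of all genes were, and 1 was at least 2-fold higher in intestine, where 22.8% of all genes were. Their median difference was 5.01. Sftpc stood apart by 14.95 on the log2 scale, which is 31642-fold and the largest difference among genes with a standard symbol that were above background in both organs. Sftpa1, which encodes a surfactant collectin that binds microbes, was at 7.21 in lung and -8.24 in intestine, at least 10687-fold higher in lung. Sftpd, the other surfactant collectin, was at 5.32 against -7.51, at least 2887-fold. Sftpb, which encodes the surfactant protein needed for film formation, was at 4.34 in lung and -6.76 in intestine, at least 1470-fold. The chitinase-like gene Chil1 was at 5.13 against -4.66 (880-fold), and the lung chemokine gene Cxcl15 at 3.25 against -6.95 (at least 686-fold). The smallest differences were those of Cd36 and Scd1. Cd36, a fatty acid uptake receptor, was at 3.54 in lung and 2.72 in intestine. Scd1, a fatty acid desaturase gene, was the exception in direction, at 4.05 in lung and 5.08 in intestine.

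Genes of the flat type 1 cell had a median difference of 5.14, and 12 of the 14 compared were at least 2-fold higher in lung. Ager, the receptor for advanced glycation end products and a standard marker of this cell, was at 5.29 in lung and -6.13 in intestine, a 2733-fold difference. The claudin gene Cldn18 was at 3.53 against -5.71, at least 604-fold higher. The water channel gene Aqp5 was at 5.59 in lung and -0.79 in intestine, 83.2-fold higher. Clic3, Limch1 and Sec14l3 were 159-fold, 152-fold and 129-fold higher in lung. Gprc5a and Clic5 were within 2-fold, at 5.74 and 5.27 in lung against 5.20 and 4.67 in intestine. Clic5 encodes a protein also found in microvilli.

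Airway genes followed. Of 15 genes of club and other airway secretory cells, 13 were at least 2-fold higher in lung and the median difference was 5.49. Scgb1a1, the secretoglobin that defines the club cell, was at 9.57 in lung and -3.27 in intestine, 7350-fold higher. Wfdc2, a secreted protein of airway epithelium, was 2443-fold higher, at 7.81 against -3.45. Cyp2f2, a club cell cytochrome P450, was 915-fold higher, at 7.96 against -1.88. Gabrp, a GABA receptor subunit gene, Cbr2, a carbonyl reductase gene, and Scgb3a1, another secretoglobin gene, were 193-fold, 181-fold and 168-fold higher. Reg3g, a bactericidal lectin gene made by both organs, went the other way and was at 1.29 in lung and 6.54 in intestine, 38.1-fold higher in intestine. The resistin-like gene Retnla was within 2-fold, at 3.23 and 3.61.

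Of 17 genes of ciliated cells and the axoneme, the microtubule core of a motile cilium, 16 were at least 2-fold higher in lung and none in intestine. The median difference was 4.14, and 7 of the differences are lower bounds. Foxj1, the transcription factor of motile cilia, was at 0.74 in lung and -6.98 in intestine, at least 121-fold higher. Tekt1, a tektin of ciliary microtubules, was at 1.73 against -6.12, at least 231-fold, and Dynlrb2, a dynein light chain, at 3.61 against -3.68, 156-fold. A second Tekt1 probe, above background in both organs, was at -0.10 and -5.53, a smaller difference than the bound on the probe used. Mlf1 and Ccdc113 were at least 108-fold and at least 97.4-fold higher in lung, and Dnali1 was 86.0-fold higher. Hydin, a central pair protein, differed least, at -0.49 in lung and -1.44 in intestine. The highest of the 4 organs was lung for 14 of the 17 genes, and of all genes compared lung was highest for 25.2%. Mlf1 was at 4.87 in esophagus, above its 0.65 in lung.

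Among single genes outside these lists, the kinase gene Stk32a was at 5.76 in lung and -4.80 in intestine on the probe used. A second Stk32a probe was not above background in either organ. Grn, the granulin gene, was at 8.57 against -0.03, while its other probe was at 3.60 and 3.43, so its 388-fold difference rests on 1 of 2 probes that disagree. The homeobox gene Irx1, the transcription factor Gata2 and the amino acid transporter Slc38a5 were 496-fold, 284-fold and 261-fold higher in lung. Atp6v1c2, a proton pump subunit gene, was 328-fold higher. Olfr894, an odorant receptor gene with 1 probe, was at 6.18 in lung and not above background in intestine, at least 5261-fold. Ccdc153, a coiled-coil gene, was at 3.01 against -6.44, at least 583-fold.

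Endothelial genes all went 1 way. All 23 genes compared were at least 2-fold higher in lung, 22 at least 4-fold, and the median difference was 6.15. All 23 were above background in both organs. Pecam1, the platelet-endothelial adhesion molecule, was at 2.67 in lung and -2.64 in intestine, and Cdh5, the cadherin of endothelial junctions, was at 4.21 and -2.20. The transcription factor Sox7 differed most, at 2.21 against -5.68, 237-fold. Ptprb, a receptor phosphatase of endothelium, was 119-fold higher in lung, Cldn5, the claudin of endothelial junctions, 104-fold, and Calcrl, an adrenomedullin receptor, 99.5-fold. Sox18 and Egfl7 followed at 99.0-fold and 88.7-fold. The smallest difference was that of Nos3, endothelial nitric oxide synthase, at -0.38 in lung and -2.37 in intestine, 3.98-fold. Lung was the highest and intestine the lowest of the 4 adult organs for all 23 genes, and over all genes compared the shares were 25.2% and 28.7%. The median level of the list was 4.05 in lung, 1.03 in esophagus, -0.13 in stomach and -1.63 in intestine.

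Of 15 genes chosen as markers of lung capillaries, 14 were at least 2-fold higher in lung and 1, Ace, in intestine, with a median of 3.65. Clec14a, an endothelial lectin, was at 3.19 against -4.13 (160-fold). Tmem100 was 93.1-fold higher, and Plvap, which forms the diaphragms of endothelial openings, 60.6-fold. Cd93, Gpihbp1, which anchors lipoprotein lipase to capillaries, and Tbx2 were 48.0-fold, 42.3-fold and 34.1-fold higher. Car4, a membrane carbonic anhydrase of capillaries that is also made by other cells, was at 2.63 and 1.19. Genes of the caveola coat, the membrane pits abundant in endothelium, differed less. Cav2 was 9.01-fold, Ehd2 6.0-fold, Cavin2 4.66-fold and Cav1 3.87-fold higher in lung, while Cavin1 and Cavin3 were within 2-fold. The median over the 6 was 2.09.

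Ace, the angiotensin-converting enzyme, is a known product of lung capillaries, but its level was lower in lung, at 2.92, than in intestine, at 5.00, a 4.23-fold difference. Its second probe read 0.50 and 2.69. Esophagus and stomach were at -0.96 and -1.46 on the first probe. Ace is also a brush border peptidase. The angiotensin and endothelin genes split evenly, with 5 of 12 at least 2-fold higher on each side. The aminopeptidase gene Enpep, the neprilysin gene Mme and the angiotensinogen gene Agt were 15.0-fold, 13.1-fold and 12.3-fold higher in intestine. The endothelin gene Edn1 was at 1.68 in lung and -2.85 in intestine, 23-fold higher in lung. Its receptors Ednra and Ednrb were 14.1-fold and 5.35-fold higher in lung, the converting enzyme Ece1 3.19-fold and the angiotensin receptor Agtr1a 4.67-fold. The median over the 12 was -0.49.

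Mesenchyme differed in kind. Of 15 genes of lung fibroblasts, 13 were at least 2-fold higher in lung and none in intestine, with a median of 2.83. Inmt, a methyltransferase, was at 8.23 in lung and 1.64 in intestine (96.1-fold), and the integrin gene Itga8 at 4.50 and -2.07 (95.0-fold). Fgfr4 was 45.6-fold, the elastic fibre gene Mfap4 42.8-fold, Npnt, an integrin ligand, 21.1-fold and the signalling gene Wnt2 15.3-fold higher. Cdo1 and Plin2 were within 2-fold. Of 23 genes of elastic fibres and matrix, 17 were at least 2-fold higher in lung and 2 in intestine, with a median of 1.96. Elastin itself, Eln, was at -1.08 against -3.83, 6.75-fold higher in lung. The 4 collagen IV genes of the list, which encode basement membrane chains, were higher in lung, Col4a3 at 0.37 in lung and below background in intestine (at least 93.6-fold), Col4a4 10.6-fold, Col4a2 5.76-fold and Col4a1 5.09-fold. Ltbp2, a latent TGF-beta binding protein, was 15.2-fold higher. The small proteoglycans Dcn and Lum went the other way, 4.59-fold and 4.84-fold higher in intestine. Lamb3 and Loxl2 were at nearly the same level in both.

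Smooth muscle was higher in intestine. Of 13 genes, 12 were at least 2-fold higher there and none in lung, with a median of -3.05. Myh11, the smooth muscle myosin heavy chain, was at 5.41 in intestine and 1.73 in lung (12.8-fold), Des, desmin, at 4.53 and 0.79 (13.3-fold), and Acta2, smooth muscle actin, at 8.08 and 4.83 (9.55-fold). Hspb6, Mylk and Lmod1 were 18.8-fold, 10.2-fold and 9.78-fold higher. Smtn was at 0.53 and 0.61, and Synm at 4.37 and 3.07. Lung was the lowest of the 4 organs for 12 of the 13, and for 31.3% of all genes compared. Genes of enteric neurons and glia had 10 of 16 at least 2-fold higher in intestine and 3 in lung, with a median of -1.79. The neuropeptide gene Vip was at 1.04 in intestine and below background in lung, at least 74.4-fold higher. Uchl1 was 18.3-fold higher in intestine, Prph at least 15.7-fold, Tac1 at least 13.5-fold, Scg2 at least 13.2-fold and Npy at least 9.0-fold. Ednrb and Stmn2 (2.23-fold) were among the genes higher in lung.

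**Figure D2:**
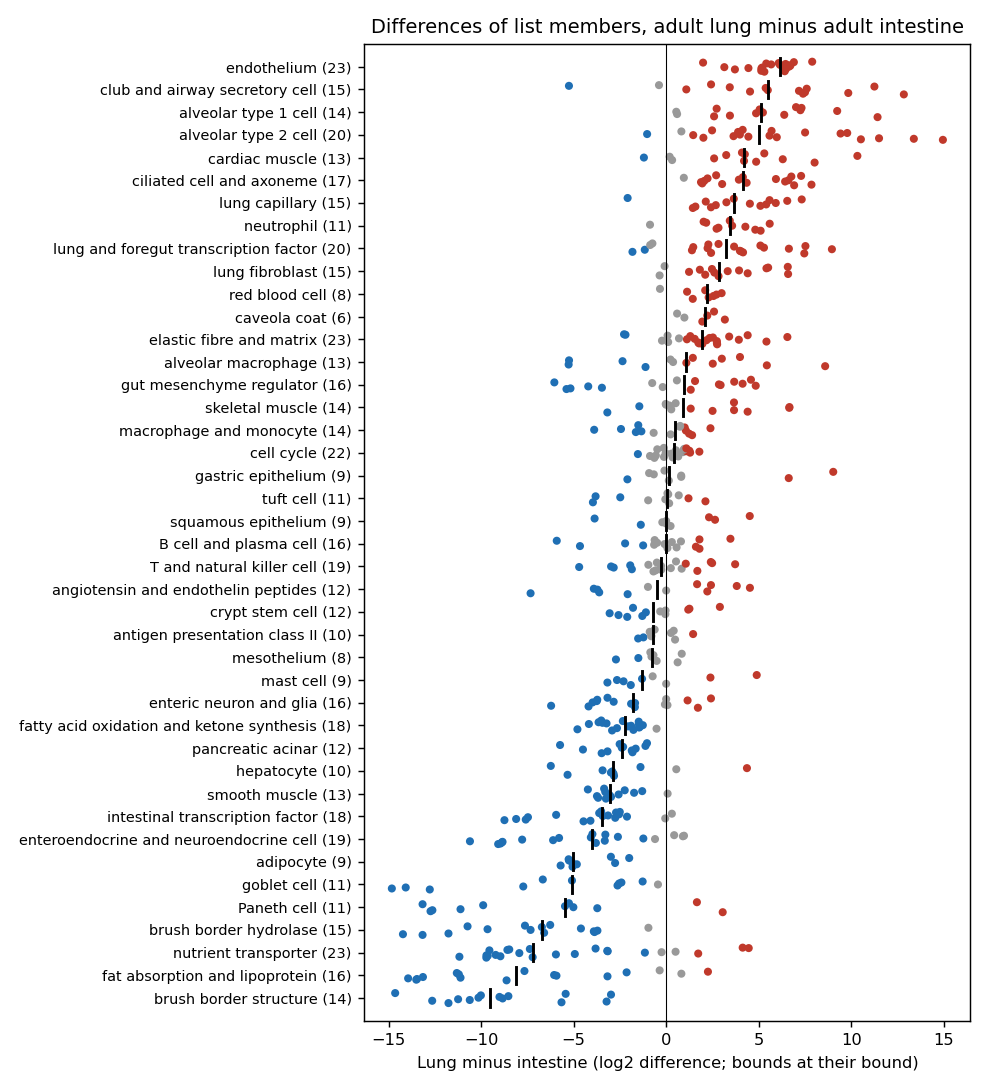
Each row is a gene list with the number of members compared in brackets, each point 1 member's lung minus intestine difference on the log2 scale, and each black bar the list's median. Red points are at least 2-fold higher in lung, blue points at least 2-fold higher in intestine and grey points within 2-fold; endothelium, at a median of 6.15, and brush border structure, at -9.51, mark the ends.

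On the intestinal side the largest difference among genes with a standard symbol that were above background in both organs was that of Prap1. This proline-rich secreted protein of the gut was at 9.34 in intestine and -4.92 in lung (19657-fold). Tm4sf5, a tetraspan membrane protein, was 2397-fold, Tmem45b 1081-fold and the lectin gene Lgals4 996-fold higher in intestine. Among genes not above background in lung, Ifi27l2b was at least 9740-fold higher.

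All 14 genes of brush border structure were at least 4-fold higher in intestine, with a median of -9.51, the lowest of any list. Intestine was the highest of the 4 organs for all 14, and for 31.0% of all genes compared. Vil1, which bundles actin in the microvillus, was 3477-fold higher, and Myo1a, the myosin that ties the bundle to the membrane, 1127-fold, at 7.5 against -2.64. The protocadherins that link the tips of microvilli, Cdhr5 and Cdhr2, were 2427-fold and at least 1564-fold higher. The keratin gene Krt20 was at 9.46 in intestine and below background in lung, at least 25479-fold. Eps8l3 was at least 6365-fold higher. Ezr and Eps8, which serve membrane and actin in many cells, differed least, 7.89-fold and 9.31-fold.

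Hydrolases of the brush border were compared for 15 genes, and 14 were at least 2-fold higher in intestine, with a median of -6.72. Lct, lactase, was at 9.19 in intestine and -5.03 in lung, at least 19072-fold. Sis, sucrase-isomaltase, was at 7.99 against -5.77 (at least 9179-fold), and Treh, trehalase, at 6.58 against -7.17 (at least 3474-fold). Mep1b, a meprin subunit, was at least 1695-fold, Ggt1 804-fold and Tmprss15, the enteropeptidase that activates trypsin, at least 198-fold higher. Mme and Dpp4, peptidases made by many cell types, were 13.1-fold and 14.6-fold higher.

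Nutrient transporters gave 18 of 23 at least 2-fold higher in intestine and 3 in lung, with a median of -7.21. The fructose transporter Slc2a5 was at 5.99 in intestine and below background in lung, at least 2304-fold, and the sodium-glucose transporter Slc5a1 at 4.54, at least 841-fold. The amino acid transporter genes Slc3a1, Slc6a19 and Slc7a9 were at least 837-fold, at least 798-fold and 592-fold higher, and Slc51a, which exports bile acids, at least 749-fold. Of the 3 genes higher in lung, 2 belong to calcium handling. Trpv6, the calcium channel of the duodenum, was at -1.72 in lung and below background in intestine, at least 22-fold higher in lung. S100g, the calcium-binding protein calbindin-D9k, was at 3.59 in lung and -0.55 in intestine, 17.5-fold higher in lung. Each rests on 1 named probe. The glutamate transporter Slc1a1 was 3.32-fold higher in lung, and the iron genes Slc40a1 and Cybrd1 were within 2-fold.

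Fat absorption followed the same pattern, with 13 of 16 genes at least 2-fold higher in intestine, 1 in lung and a median of -8.14. Fabp2, the intestinal fatty acid-binding protein, was at 10.01 in intestine and -3.48 in lung (11573-fold). The apolipoprotein genes Apoa4, Apoa1 and Apoc3 were at 8.76, 8.28 and 7.96 in intestine and below background in lung, at least 15714-fold, at least 11245-fold and at least 9046-fold higher. Abcg5, which pumps plant sterols out, was 2541-fold and Mogat2, which rebuilds triglyceride, 2355-fold higher. Scarb1, the lipoprotein receptor, was 4.78-fold higher in lung, and Cd36 and Acat2 were within 2-fold. Genes of fatty acid oxidation and ketone synthesis were higher in intestine in 17 of 18 cases, but by less, with a median of -2.20. Bdh1, a ketone body dehydrogenase, was 27.7-fold, Ehhadh 18.1-fold, Pdk4 12.6-fold and the receptor gene Ppara 11.4-fold higher, and Cyp4a10 at least 10.9-fold. Neither of the other Cyp4a10 probes was above background in lung, and 1 of them was in intestine, at -5.21. Cpt1a, the entry enzyme of mitochondrial oxidation, was within 2-fold, and Hadha was 2.40-fold higher.

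Secretory cells of the intestine followed in turn. For goblet cells 10 of 11 genes were at least 2-fold higher in intestine, with a median of -5.09. Zg16, a mucus lectin, was at 9.74 in intestine and -5.07 in lung, at least 28835-fold, the largest bound among genes with a standard symbol. Tff3, the trefoil factor of goblet cells, was at 8.89 against -6.99, at least 17164-fold, and Clca1 at 7.59 against -5.23, at least 6971-fold. Agr2, Spink4 and Gcnt3 were 211-fold, 101-fold and at least 34.0-fold higher, while Sytl2 and Ern2 were at 1.36-fold and 2.41-fold. For Paneth cells 9 of 11 genes were higher in intestine, with a median of -5.47. The defensin genes Defa5, Defa20 and Defa29 were at least 6813-fold, at least 6323-fold and at least 2214-fold higher, though their near-identical sequences make each probe's gene uncertain. The lectin genes Reg3b and Reg3a were at least 9175-fold and at least 946-fold higher, and Itln1 was 44.2-fold higher. The 2 exceptions were Lyz1 and Nod2. Lyz1, the Paneth cell lysozyme, was at 7.53 in lung and 4.48 in intestine, 8.31-fold higher in lung. Its near-identical neighbour Lyz2, the macrophage and type 2 cell lysozyme, was at 8.81 and 6.33, 5.58-fold higher in lung, and the 2 genes cannot be told apart with certainty by hybridisation. The sensor gene Nod2 was 3.16-fold higher in lung.

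Hormone genes of enteroendocrine and neuroendocrine cells had 15 of 19 at least 2-fold higher in intestine, with a median of -3.98. Sct, secretin, was at 6.30 in intestine and -4.30 in lung (1556-fold). Cck, cholecystokinin, and Gip were at 3.70 and 3.66 in intestine and below background in lung, at least 470-fold and at least 458-fold higher. The granin genes Chga and Chgb were at least 540-fold and 494-fold higher, and Sst, somatostatin, at least 220-fold. Insl5, an insulin-like peptide gene, was within 2-fold. Tuft cell genes showed no common direction on the probes used, with 2 of 11 at least 2-fold higher in lung, 3 in intestine and a median of 0.07. The shares over all genes compared were 21.6% and 22.8%. Dclk1 of the tuft list was within 2-fold on the probe used. Its other probes differed by -2.44, -1.74 and -2.44 on the log2 scale, all higher in intestine, so the tuft cell counts depend on the probe. The ion channel gene Trpm5 was at least 15.5-fold, Rgs13 at least 14.1-fold and Avil 5.58-fold higher in intestine. Pou2f3, the tuft cell transcription factor, was at -3.10 in lung and -5.22 in intestine, 4.35-fold higher in lung, and it changed sign under another background correction. Chat and Ptgs1 differed by no more than 1.08-fold.

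Crypt stem cell genes were split as well, with 6 of 12 at least 2-fold higher in intestine, 3 in lung and a median of -0.71. Over all genes compared, the shares were 22.8% in intestine and 21.6% in lung. Sox9 was 8.30-fold, Smoc2 5.96-fold and Lgr5, the stem cell receptor, 4.30-fold higher in intestine. Ephb3 was 7.48-fold, Slc12a2 2.39-fold and Tnfrsf19 2.29-fold higher in lung. Axin2 and Prom1 differed by no more than 1.03-fold. Of 22 cell cycle genes, 16 were within 2-fold, 5 were at least 2-fold higher in lung and 1 in intestine, and the median was 0.40. Mcm3 was at -1.40 in lung and -3.19 in intestine and Birc5 at 0.63 and 2.16. Intestine was the lowest of the 4 organs for 14 of the 22, and for 28.7% of all genes compared.

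The labels do not name the part of the intestine, and segment genes give the following levels. Of 11 genes of the proximal small intestine, 8 were at least 2-fold higher in intestine than in lung, with a median of -8.84. Rbp2, a retinol-binding protein, was at 6.55 in intestine and Ada, adenosine deaminase, at 8.92, at least 3390-fold and 558-fold higher. Ada was also at 8.29 in esophagus and 7.55 in stomach, where Rbp2 was at 0.94 and 0.50. Of 6 ileal genes, Slc51b was at 3.40 and Nts at 2.53 in intestine, while Slc10a2, the ileal bile acid transporter, was at -2.0, Fgf15 at -4.29 and Fabp6, the ileal bile acid-binding protein, not above background. Of the 5 compared, 4 were at least 2-fold higher in intestine, with a median of -6.11. Of colon genes, Slc26a3 was at 2.04 and Aqp8 at 0.96, Car1 at -2.37, Hoxb13 at -5.81 and Hoxd12 at -5.64, and Retnlb and Hoxd13 not above background. Over the 10 colon genes compared the median was -1.13, and 5 were at least 2-fold higher in intestine.

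Transcription factors followed the organs they are known from. Of 20 factors of lung and foregut, 16 were at least 2-fold higher in lung and 2 in intestine, with a median of 3.25. Nkx2-1, which specifies lung epithelium, was at 1.28 in lung and -8.15 in intestine, at least 176-fold. Tbx5, of lung mesenchyme, was at least 184-fold, Irx2 99.0-fold and Irx5 at least 39.0-fold higher. Foxa2 was at 2.92 and -1.24 (17.8-fold) and Foxa1 at -0.33 and -2.75 (5.38-fold). Sox2, the factor of foregut epithelium, was at least 16.5-fold, Etv5 15.8-fold, Tbx4 at least 12.7-fold and Irx3 at least 4.72-fold higher. The mesenchymal factors Tcf21, Foxf1, Hoxa5 and Foxp1 were between 2.63-fold and 7.10-fold higher. Tbx3 was within 2-fold. Klf2 was within 2-fold on the probe used, while its second probe was at 4.06 in lung and 1.70 in intestine. Gata6 and Foxp2 were 3.53-fold and 2.23-fold higher in intestine, though 1 of the 2 other Gata6 probes differed by only -0.62 on the log2 scale.

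Of 18 intestinal factors, 16 were at least 4-fold higher in intestine and none in lung, with a median of -3.47. Hnf4a, a nuclear receptor that drives enterocyte genes, was at 3.56 in intestine and -7.14 in lung, at least 427-fold. Its relative Hnf4g was at least 192-fold and the xenobiotic receptor Nr1i2 at least 177-fold higher. The vitamin D receptor gene Vdr was 61.6-fold higher. Prdm1 was within 2-fold. Elf3, Maf, Nr1h4, Nr5a2, Klf4, Klf5, Gata4, Atoh1 and Nr1i3 were between 4.34-fold and 12.3-fold higher, with Gata4 and Atoh1 as lower bounds. Cdx1 and Cdx2, the homeobox genes of intestinal identity, were at least 22.1-fold and 17.0-fold higher. Cdx2 was nevertheless called above background in lung, at -0.25, against 3.84 in intestine, -8.51 in stomach and -8.38 in esophagus, on its 1 named probe.

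Promoters were read because Hnf4a, Hnf4g, Cdx1 and Cdx2 were higher in intestine and Nkx2-1, Foxa2 and Foxj1 in lung. RefSeq promoters of build GRCm38.p6, each with 250 bases before and 50 after a gene's start, were at hand for 11682 of the 14672 genes compared, and the first one listed was used. In all 10 motif forms were searched on both strands, chosen after the levels were seen. The HNF4 form CAAAGTCCA was in 13 of 408 promoters (3.19%) of genes at least 16-fold higher in intestine, in 2 of 271 (0.738%) of those at least 16-fold higher in lung, in 0.479% of all genes compared and in 0.477% of 27025 promoters. Its shorter form CAAAGTCC, which includes the matches of the longer one, was in 6.13%, 2.95%, 1.55% and 1.44%. The following shares are of genes at least 16-fold higher in intestine, of those at least 16-fold higher in lung and of all genes compared. The CDX form TTTATGG was in 3.68%, 3.32% and 1.96%, the NKX2-1 form CACTTGA in 3.43%, 1.85% and 2.16%, the forkhead form TGTTTAC in 5.64%, 3.69% and 2.77%, and the ETS form ACNGGAAGT in 1.96%, 0.369% and 3.39%. A long form of the RFX motif and the short form GTTGCCA, of factors that act on ciliary genes, were in 0% and 3.68% on the intestinal side, 0% and 6.27% on the lung side and 0.308% and 3.89% of all. In the ciliated list the form GTTGCCA was in 4 of 14 promoters (28.6%). A match is a run of letters, not a binding site. The 3 intestinal genes of largest difference among the 13 with the HNF4 form, and the 2 of largest difference among the 4 ciliated genes with GTTGCCA, are shown because the levels of these genes differed between the organs. Capitals mark the motif, written as its reverse complement where it lies on the other strand.
Treh, chr9:44672983-44673282, plus strand: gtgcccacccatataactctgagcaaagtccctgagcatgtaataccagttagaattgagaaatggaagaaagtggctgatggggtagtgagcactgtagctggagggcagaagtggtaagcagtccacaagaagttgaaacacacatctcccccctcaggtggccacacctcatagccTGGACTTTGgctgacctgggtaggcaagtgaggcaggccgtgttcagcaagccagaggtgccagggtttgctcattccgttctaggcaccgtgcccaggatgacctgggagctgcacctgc
Cyp3a41a, chr5:145720087-145720386, minus strand: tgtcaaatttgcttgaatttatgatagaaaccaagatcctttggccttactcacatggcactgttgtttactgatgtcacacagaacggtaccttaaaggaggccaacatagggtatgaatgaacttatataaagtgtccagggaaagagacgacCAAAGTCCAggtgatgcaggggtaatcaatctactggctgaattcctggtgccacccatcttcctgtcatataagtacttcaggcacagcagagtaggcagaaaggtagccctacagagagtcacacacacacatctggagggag
Pdzk1, chr3:96829815-96830114, plus strand: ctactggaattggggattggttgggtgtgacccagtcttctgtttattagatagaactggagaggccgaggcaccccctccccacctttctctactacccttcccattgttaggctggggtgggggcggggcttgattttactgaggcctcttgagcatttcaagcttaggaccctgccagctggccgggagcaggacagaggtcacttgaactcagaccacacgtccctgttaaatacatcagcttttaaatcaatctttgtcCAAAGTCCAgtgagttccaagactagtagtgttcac
Tekt1, chr11:72361833-72362132, minus strand: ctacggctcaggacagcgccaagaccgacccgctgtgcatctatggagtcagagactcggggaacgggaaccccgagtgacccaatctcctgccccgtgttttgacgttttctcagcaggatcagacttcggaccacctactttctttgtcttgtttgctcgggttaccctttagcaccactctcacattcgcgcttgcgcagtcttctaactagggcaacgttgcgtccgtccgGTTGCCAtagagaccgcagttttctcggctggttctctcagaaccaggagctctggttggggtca
Mlf1, chr3:67373847-67374146, plus strand: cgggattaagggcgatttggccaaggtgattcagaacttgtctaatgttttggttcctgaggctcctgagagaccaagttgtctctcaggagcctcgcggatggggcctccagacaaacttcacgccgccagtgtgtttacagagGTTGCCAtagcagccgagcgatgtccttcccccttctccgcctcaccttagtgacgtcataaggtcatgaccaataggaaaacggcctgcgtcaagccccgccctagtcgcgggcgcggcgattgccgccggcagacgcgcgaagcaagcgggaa

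Of the 3 intestinal promoters, that of trehalase, Treh, belongs to a gene at 6.58 in intestine and below background in lung. Cyp3a41a, a cytochrome P450 gene with near-identical relatives that its probe may also detect, was at 7.0 and -4.11, 2209-fold higher in intestine. Pdzk1, a scaffold of brush border transporters, was at 5.70 and -5.78, at least 1879-fold higher; it is in no list above and was chosen for its promoter.

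Regulators of gut mesenchyme split into both directions, with 8 of 16 at least 2-fold higher in lung, 5 in intestine and a median of 0.95. Over all genes compared, the shares were 21.6% in lung and 22.8% in intestine. The hedgehog ligands exchanged places. Shh was at -2.50 in lung and below background in intestine, at least 12.8-fold higher in lung, and Ihh was at 0.86 in intestine and below background in lung, at least 65.9-fold higher in intestine. The hedgehog targets Hhip and Ptch1 were 23.9-fold and 2.95-fold higher in lung, and Gli1 was within 2-fold. Bmp5 was 17.5-fold and Bmp4 7.22-fold higher in lung, as were the homeobox genes Meox2 (28.6-fold) and Meis1 (7.68-fold) and the forkhead gene Foxf2 (2.51-fold). A second Meis1 probe was at -1.63 and -2.10, within 2-fold. The gut factors Nkx2-3, Hand1 and Hand2 were at least 41.8-fold, at least 36.0-fold and 11.1-fold higher in intestine. Hlx and Wnt5a were within 2-fold, and Barx1 was above background in neither organ.

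Barrier genes were compared next. Of 6 mucin genes compared, 4 were at least 2-fold higher in lung and 1 in intestine, with a median of 2.49. Muc5b, the airway mucin, was at 1.02 in lung and -4.47 in intestine (44.9-fold). Muc1 was 51.8-fold, Muc20 14.9-fold and Muc4 2.13-fold higher in lung. Muc13, a membrane mucin of enterocytes, was at 6.28 in intestine and below background in lung, at least 2817-fold higher. Muc5ac was within 2-fold and was at 7.94 in stomach, and Muc15 was above background in neither organ. Muc2, the main gel-forming mucin of goblet cells, was not analysed here.

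Claudins and other tight junction genes seal the epithelium, or in the case of Cldn5 the endothelium. Different members were higher in lung and in intestine. Of 23 compared, 6 were at least 2-fold higher in lung, 9 in intestine and 8 within 2-fold, with a median of -0.52. Over all genes compared, 21.6% were at least 2-fold higher in lung and 22.8% in intestine. Cldn18 and Cldn5 led in lung, followed by Cldn8 (at least 26.5-fold) and Cldn10 (6.61-fold), and by Tjp1 at 2.78-fold. Cldn18 was at 3.53 in lung and 4.19 in stomach. Cldn8 was at -1.45 in lung, -1.005 in stomach and -1.86 in esophagus. Cldn5 and Cldn10 were higher in lung than in the other adult organs. Cldn4 and Cldn15 led in intestine, 53.4-fold and 44.1-fold higher, followed by Cldn7 at 7.54 against 2.56 (31.6-fold) and Cldn23 (15.6-fold). Cldn3, Ocln, Tjp3 and Marveld3 were between 3.24-fold and 6.23-fold higher in intestine, and Cldn2 at least 2.63-fold. Cldn1, Cldn9, Cldn12, Cldn14, Cldn19, F11r and Marveld2 were within 2-fold, and Cldn6, Cldn16 and Cldn17 were above background in neither. Cldn11 was at -4.31 and -5.32, and it changed sign under another background correction.

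Fluid and ion transport differed in its components as well, with 9 of 29 genes at least 2-fold higher in lung and 14 in intestine and a median of -0.80. The shares over all genes compared were 21.6% and 22.8%. The subunits of the epithelial sodium channel, which clears fluid from the airspace, were all higher in lung. Scnn1a was at 4.44 and 1.00 (10.8-fold), Scnn1b at 1.27 and below background (at least 174-fold) and Scnn1g at 2.96 and below background (at least 563-fold). Slc26a9, a chloride transporter, was 30.3-fold and Aqp4 5.60-fold higher in lung. A second Aqp4 probe, at -3.05 in lung and -2.40 in intestine, was within 2-fold and on the other side. In intestine the guanylin pathway, which drives chloride secretion, stood out. Guca2b, uroguanylin, was at 9.33 in intestine and -5.17 in lung, at least 23253-fold higher, and its receptor Gucy2c was at 3.12 and -3.33 (87.6-fold). Cftr, the chloride channel, was at 0.57 and -1.64 (4.63-fold). The sodium pump subunit gene Atp1b1 was 10.9-fold higher in intestine, and the exchangers Slc26a3, Slc26a6, Slc9a2 and Slc9a3 at least 149-fold, 125-fold, at least 21.1-fold and at least 5.35-fold. Among water channels Aqp5 was higher in lung, Aqp1 was at 6.09 and 5.46, and Aqp3, Aqp7, Aqp8 and Aqp11 were between 43.7-fold and at least 72.7-fold higher in intestine.

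Antimicrobial genes were all apart by more than 2-fold, 13 of the 23 compared higher in lung and 10 in intestine, with a median of 3.05. The sets refer to lung against intestine only. The lung set held the collectins Sftpa1 and Sftpd, Wfdc2, the BPI-fold genes Bpifb1 and Bpifa1 (at least 144-fold and at least 23.1-fold), Lcn2 (46.9-fold), both lysozyme genes, and genes of neutrophil granules such as Ngp, Camp and Ltf. Bpifb1 was higher in stomach, at 7.16, than in lung, at 1.00, while Bpifa1 was above background in neither esophagus nor stomach. The intestinal set held the lectins Zg16, Reg3b, Reg3a, Reg3g and Itln1, and Lypd8 (at least 5043-fold), which binds bacterial flagella, Dmbt1 (268-fold), Mptx1 (at least 92.7-fold), Ang4 (13.2-fold) and Slpi. A second Lypd8 probe, above background in both organs, was at -3.87 in lung and 4.67 in intestine, a smaller difference than that bound. On the probe used, Lypd8 was at 7.12 in intestine and 6.77 in stomach. Slpi was at 4.33 in lung and 6.07 in intestine, and averaging its probes turned its sign, since a second probe was above background in neither organ. Defb1 was above background in neither.

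**Figure D3:**
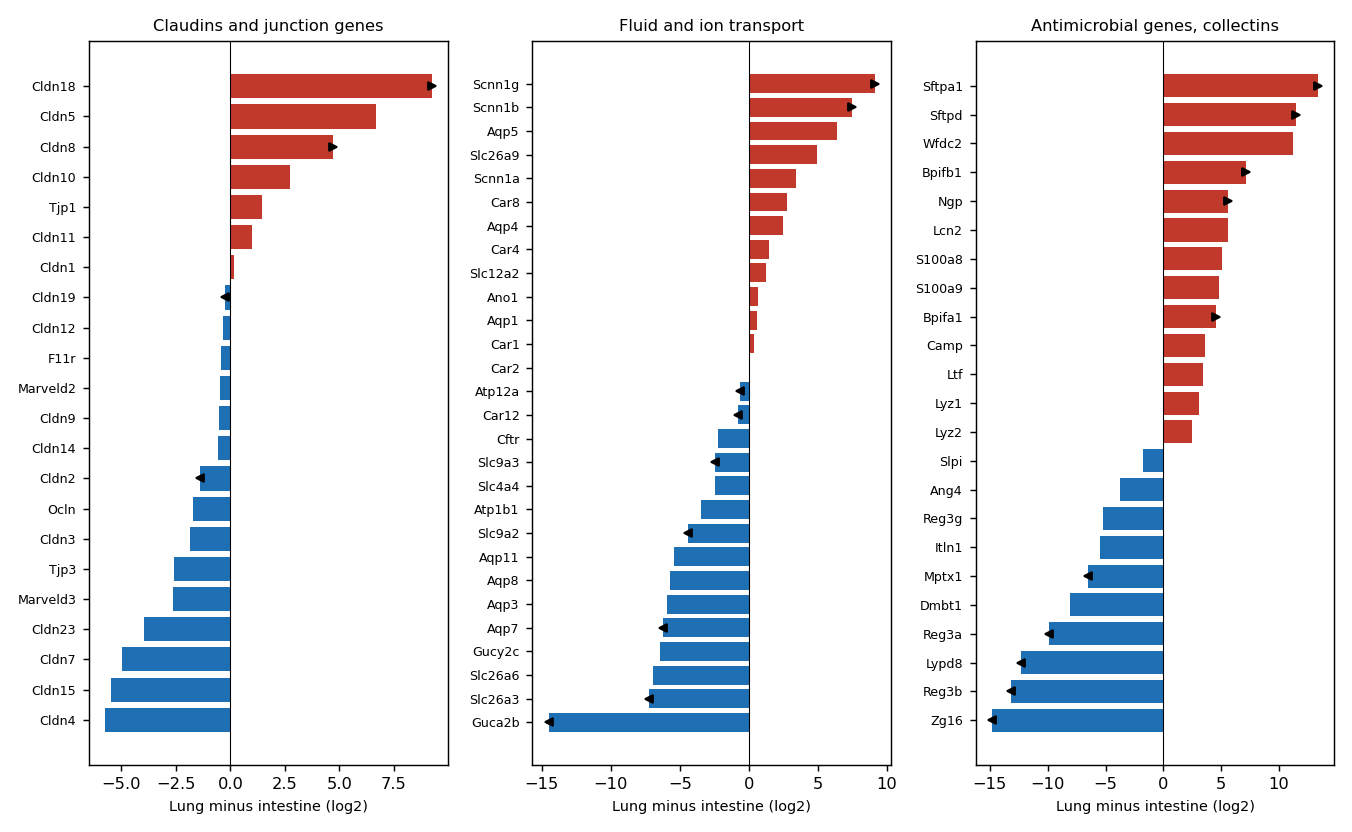
Bars give the lung minus intestine difference on the log2 scale of each gene reported among claudins and junction genes, fluid and ion transport, and antimicrobial genes. Black arrowheads mark lower bounds; each organ has members far on its own side, from Cldn18 to Cldn4, from Scnn1g to Guca2b and from Sftpa1 to Zg16.

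Enzymes of xenobiotic and retinoid metabolism were measured for 48 genes, of which 14 were at least 2-fold higher in lung and 25 in intestine, with a median of -1.64. The shares over all genes compared were 21.6% and 22.8%. Besides Cyp2f2, Cbr2 and Inmt, the lung set held the flavin monooxygenases Fmo2 at 5.47 and 1.5 (15.8-fold) and Fmo1 (13.1-fold), the oxidase gene Aox3 (45.1-fold) and Gsta3 (7.76-fold). The intestinal set held Cyp4f14 (at least 5950-fold), Cyp2d26 at 8.18 against -3.56 (3406-fold), the alcohol dehydrogenase Adh6a (at least 4499-fold), the sulfotransferase Sult1b1 (at least 2951-fold), Cyp3a25 (at least 1457-fold), the carboxylesterase Ces2c (1161-fold) and Cyp3a13 at 7.85 against -1.54 (672-fold). Cyp2s1 was at 4.79 and 4.81, and Cyp2b19 and Gsta4 were within 2-fold. Cyp1a1 and Cyp1b1 were within 2-fold too.

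Relatives within gene families were set side by side, with 30 genes measured and 28 compared. Of these, 14 were at least 2-fold higher in lung and 13 in intestine, and the median was 0.83. Ces1d was 4.15-fold higher in lung and Ces2e, at 7.25 against -0.87, 278-fold higher in intestine. Fmo2 was higher in lung and Fmo5 28.7-fold higher in intestine. Aqp5 and Aqp8, and Cldn18 and Cldn15, were split the same way, as were the cadherins Cdh5 and Cdh17, the latter at 4.83 in intestine and at least 1033-fold higher. Among trefoil factors Tff2 was at 0.99 in lung and below background in intestine (at least 98.5-fold) and Tff3 was on the intestinal side. Slc34a2, the phosphate transporter of type 2 cells, was 12.4-fold higher in lung, and Slc34a1 was above background in neither. Hopx was 6.02-fold higher in lung.

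Of 11 neutrophil genes 10 were at least 4-fold higher in lung and none at least 2-fold higher in intestine, with a median of 3.44. S100a8 and S100a9 were at 2.25 and 4.40 in lung against -2.85 and -0.41 in intestine, 34.4-fold and 28.1-fold. Ngp was at least 48.3-fold, Retnlg 19.4-fold, Mmp8 at least 11.8-fold and Ltf 10.8-fold higher. Mmp9 was within 2-fold. Red blood cell genes, a measure of blood in the organ, were higher in lung in 7 of 8 cases, with a median of 2.20. The globin genes Hbb-bt and Hba-a1 were 4.91-fold and 2.71-fold higher, Slc4a1 7.98-fold and Alas2 5.88-fold, and Bpgm was within 2-fold. Their part in the neutrophil and endothelial differences was not tested.

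Of 13 genes of alveolar macrophages, 7 were at least 2-fold higher in lung and 4 in intestine, with a median of 1.09. Chil3 was at 5.38 against -3.21 (385-fold), Ear1 43.4-fold, Atp6v0d2 at least 15.9-fold and Plet1 8.04-fold higher in lung. Marco, a scavenger receptor of these cells, was at 0.94 and 2.06, 2.17-fold higher in intestine. Fabp4, Cidec and Pparg were 38.6-fold, 38-fold and 5.12-fold higher in intestine, and these 3 are also fat cell genes. Lpl and Msr1 were within 2-fold. General macrophage and monocyte genes had 5 of 14 on each side and a median of 0.49. Over all genes compared, the shares were 21.6% in lung and 22.8% in intestine. The monocyte receptor Ccr2 was 5.25-fold and Csf1r 2.64-fold higher in lung, while Cd163, C1qb and Itgam were 5.43-fold, 3.11-fold and 2.84-fold higher in intestine. Adgre1 and C1qa were within 2-fold.

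T and natural killer cell genes had 5 of 19 on each side and a median of -0.28. Over all genes compared, 21.6% were at least 2-fold higher in lung and 22.8% in intestine, so these counts lie near the general shares. Ncr1, a natural killer receptor, was at least 13.2-fold, Prf1 5.59-fold, Il7r 5.33-fold and Cd3d 3.21-fold higher in lung. Gzmb, Cd7 and Gzma, genes of lymphocytes within the gut epithelium among others, were 26.0-fold, 7.87-fold and 7.13-fold higher in intestine. Zap70 and Cd4 differed by no more than 1.21-fold. Among 16 B and plasma cell genes the split was 4 and 4, also near the shares over all genes, with a median of -0.01. Fcer2a was 11.1-fold, Cr2 3.48-fold and Cd79b 3.05-fold higher in lung, as genes of B cells. Jchain, which joins immunoglobulin A into dimers, was at 5.59 in intestine and 0.93 in lung (25.2-fold). Pigr, the receptor that carries these dimers across epithelium, was at 6.37 and 0.45 (60.2-fold). Tnfrsf17, of plasma cells, was at least 4.65-fold higher in intestine, and Ms4a1 and Xbp1 were nearly equal. MHC class II genes were within 2-fold in 7 of 10 cases, with 1 higher in lung, 2 in intestine and a median of -0.71. H2-Oa was 2.74-fold higher in lung and H2-Ab1 2.86-fold and H2-DMa 2.34-fold higher in intestine, while Ciita and H2-Ob differed by no more than 1.33-fold. Mast cell genes had 2 of 9 higher in lung, near the share over all genes, and 5 in intestine, with a median of -1.30. Hdc and Kit were 29.7-fold and 5.25-fold higher in lung, and the proteases Mcpt4 (9.03-fold), Cpa3 (at least 6.30-fold) and Cma1 (4.93-fold) in intestine. A second Mcpt4 probe was at -1.10 in lung and -1.22 in intestine, so the Mcpt4 difference rests on 1 of 2 probes that disagree.

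Genes of tissues that adjoin the organs were measured as well. Of 13 cardiac genes compared, 10 were at least 4-fold higher in lung and 1 was at least 2-fold higher in intestine, with a median of 4.21. Sln, sarcolipin, was at 4.16 in lung and below background in intestine (at least 1290-fold), and Myh6, the atrial myosin, at 3.17 and -4.85 (259-fold). Tnni3, Mybpc3, Myl4 and Myl3 were 78.7-fold, 39.4-fold, 29.1-fold and 19.0-fold higher. Sln and Myl3 were higher in esophagus, at 8.09 and 8.55, than in lung, and Tnni3 was higher in stomach, at 5.20, than in lung, at 2.98. Myh6, Mybpc3 and Myl4 were higher in lung than in esophagus and stomach. A second Myl3 probe differed by 1.13 on the log2 scale, against 4.25 on the probe used. Myl2, the ventricular light chain, was above background in neither organ, and Actc1 was 2.30-fold higher in intestine. As background, cardiac muscle surrounds pulmonary veins in the mouse; how much heart or vein tissue was taken is not given. Skeletal muscle genes had 7 of 14 higher in lung and 2 in intestine, with a median of 0.92. Myh1 and Atp2a1 were within 2-fold on the probes used. A second probe of each was above background in lung alone, at -0.72 and -4.20, so the count depends on the probe. Myh8, Myh4, Tnnc2, Tnnt3 and Tcap were 101-fold, 100-fold, 21.1-fold, 12.7-fold and 12.7-fold higher in lung. Mb, myoglobin, was 320-fold higher, at 2.65 against -5.68, and was at 8.08 in esophagus. Acta1 and Ckm were 9.05-fold and 2.73-fold higher in intestine. Myh2 was 2.51-fold higher in lung and changed sign under another background correction. Esophagus, whose wall holds skeletal muscle, was above lung for Myh8, at 9.36 against 3.09. A second Myh8 probe was above background in neither lung nor intestine.

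Fat cell genes were higher in intestine for all 9 compared, with a median of -5.06. Cfd, adipsin, was at 7.40 in intestine and 2.57 in lung (28.4-fold), Retn, resistin, at 3.28 and -2.42 (52.1-fold) and Plin1 at 1.75 and -3.31 (33.3-fold). Fabp4, Cidec and Car3 were between 34.5-fold and 38.6-fold higher. Ucp1 was above background in neither. Fabp4 and Cidec belong to this list and to the alveolar macrophage list, so they count in both. The part of fat tissue in the results on lipid genes was not tested. All 12 pancreatic acinar genes were at least 2-fold higher in intestine, with a median of -2.36 and 7 lower bounds, but at low level, between -3.32 for Cela2a and 0.76 for Rnase1. Pnliprp2 was at least 53.1-fold, Cela3b at least 22.6-fold and Cpa1 at least 11.2-fold higher. Of 10 hepatocyte genes 8 were higher in intestine, with a median of -2.88, among them Ambp (75.2-fold), Fgb (40.1-fold) and Apoh (at least 10.8-fold). Hp, haptoglobin, was at 6.60 in lung and 2.23 in intestine, 20.6-fold higher in lung, and Ttr was above background in neither.

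Squamous, gastric and mesothelial genes had medians of 0, 0.14 and -0.74. For the counts below, 21.6% of all genes compared were at least 2-fold higher in lung and 22.8% in intestine. Of 9 squamous genes 3 were at least 2-fold higher in lung and 2 in intestine. Among them Calml3, Lor and Krtdap were 22.9-fold, 6.24-fold and at least 4.98-fold higher in lung, Sprr1a was 14.6-fold higher in intestine, and the defining factor Trp63 was above background in neither. Krt13 was 2.58-fold higher in intestine, while a second Krt13 probe was at -4.46 in lung and below background in intestine. Of 9 gastric genes 2 were at least 2-fold higher in lung and 1 in intestine. The chitinase Chia1 was at 4.17 in lung and -4.86 in intestine (521-fold), below its 8.91 in stomach. The stomach genes Pgc and Muc5ac were within 2-fold, Tff1 was 4.27-fold higher in intestine, and Gkn1, Gkn2 and Cblif were above background in neither. Of 8 mesothelial genes, 6 were within 2-fold, Msln at 4.11 and 3.50, and Wt1 was 6.56-fold and Krt19 2.84-fold higher in intestine.

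Genes that respond to handling of tissue were mixed. Of 15 immediate early and heat shock genes, 6 were at least 2-fold higher in lung and 5 in intestine, with a median of 0.34. Over all genes compared, the shares were 21.6% in lung and 22.8% in intestine. Ccn1 was 37.8-fold, Egr2 7.62-fold and Dusp1 7.39-fold higher in lung, and Atf3 6.63-fold and Fos 2.88-fold higher in intestine. Of 14 interferon response genes 7 were within 2-fold, 4 were higher in lung and 3 in intestine, with a median of 0.47. Irf7 was 13.2-fold and Oas1a 4.22-fold higher in intestine, and Bst2 3.43-fold higher in lung. Of 15 housekeeping genes 8 were within 2-fold, 1 was higher in lung and 6 in intestine, with a median of -0.47. Pgk1 and Gapdh, both of glycolysis, were 5.82-fold and 5.73-fold higher in intestine and Gusb 2.32-fold higher in lung, while Tfrc and Tbp differed by no more than 1.02-fold.

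The esophagus and stomach arrays show on which side a difference lies. Of 1447 genes at least 4-fold higher in lung with usable values in all 4 organs, esophagus and stomach were both nearer the intestinal level for 698 (48.2%) and both nearer the lung level for 307 (21.2%). Of 1608 genes higher in intestine, both were nearer the lung level for 801 (49.8%) and both nearer the intestinal level for 296 (18.4%). Over all 14628 genes the shares were 36.9% nearer lung and 32.5% nearer intestine. Among genes at least 16-fold higher in intestine, both were nearer lung for 59.3%. The esophagus array carried lung genes at substantial level, Sftpc at 5.12 and Scgb1a1 at 5.44, where stomach was at -0.74 and 2.91, and the part of this in the counts was not tested.

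**Figure D4:**
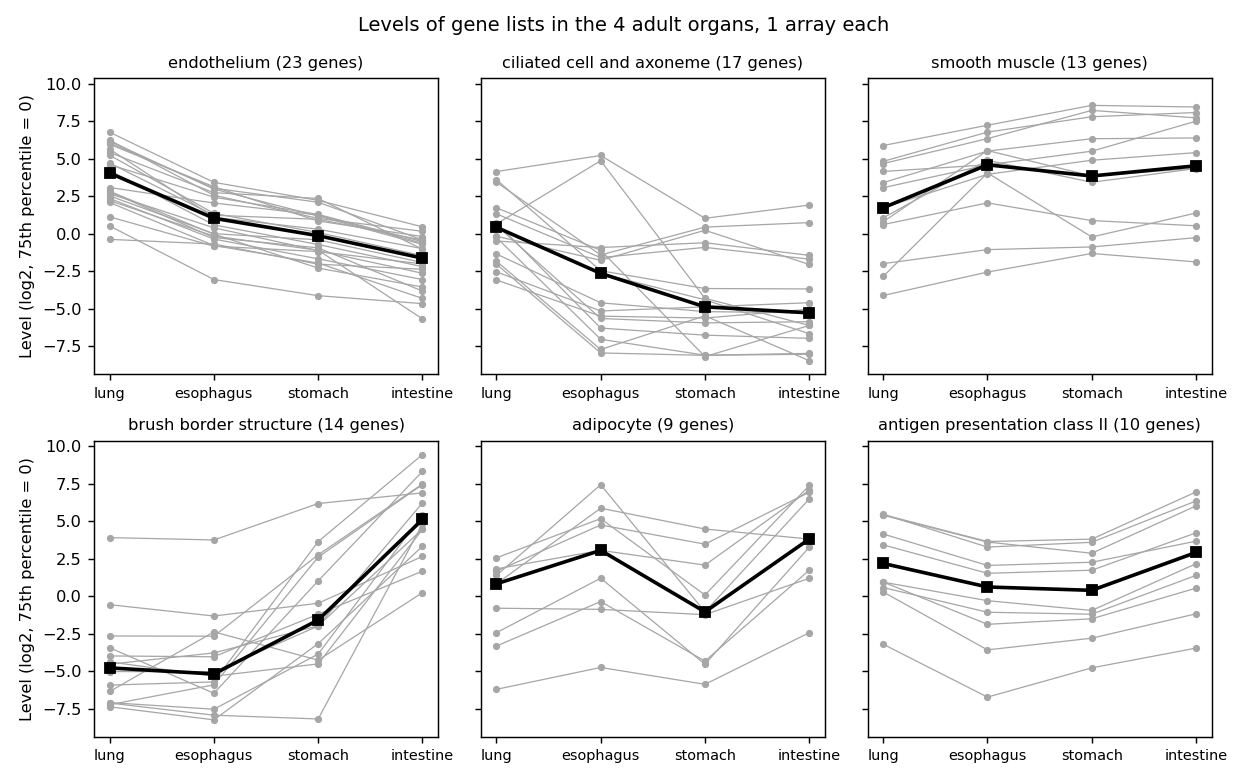
Each grey line joins the levels of 1 gene in lung, esophagus, stomach and intestine (log2, 0 is the 75th percentile of the array), and black squares give the list's median. Endothelial genes are highest in lung and lowest in intestine for all 23 genes, smooth muscle genes are lowest in lung for 12 of 13, and MHC class II genes are higher in lung and intestine than in the other 2 organs.

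A last set of genes was shared by lung and intestine. Some genes were at least 4-fold above both esophagus and stomach in lung and in intestine alike, and for 52 of them (49.5%) lung and intestine were within 2-fold of each other, where 55.7% of all genes compared were. The closest with a standard symbol were Tnfsf15, a cytokine gene, at -3.27 and -3.24, the aldehyde dehydrogenase Aldh3b1, at 4.36 and 4.40, and Upp1, uridine phosphorylase, at -4.01 and -3.94. Ms4a1, the B cell surface protein CD20, was at 1.61 and 1.54, against -1.29 in esophagus and -3.68 in stomach. Gbp8, an interferon-induced guanylate-binding protein, and Cdo1, cysteine dioxygenase, completed the closest 6.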

How the data were processed

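Processed signals of adult lung and adult intestine, 1 Agilent 4x44K array each, were compared. Per the file headers, the deposited scanner files hold background-corrected intensity per spot with other flags for control, outlier, saturated and well-above-background spots, written by Feature Extraction 10.5.1.1, and 10.5 per the submitters' processing notes. The authors also deposited a table of log2 values shifted to the 75th percentile, which served as an alternative. Control spots and outliers (728 in lung, 40 in intestine) were left out, no spot was saturated, spots of a probe were averaged in log2 and the 75th percentile of the array was subtracted (pandas 2.3.3, numpy 2.4.6). RefSeq names were found for 24375 of 41174 probes through their accession and for 57 through a symbol, leaving 16742 without a name. A probe with repeat spots needed the background flag on a share of 0.5 of them or more, and the floor of a bound, the lowest signal called above background, was -5.18 in lung and -6.18 in intestine. Where a bound fell below 1-fold the difference was set to 0. Repeat spots of a probe had a median standard deviation of 0.0858 in lung and 0.0914 in intestine. Both arrays lie on 1 slide, so slide was no batch between them. The comparison was repeated with the authors' table, with median centring, with quantile normalization, with normexp (limma 3.58.1, offset 50), with other background filters, with the mean over probes, and at 2-fold and 8-fold thresholds. Counting was tested on simulated data.

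Genes named are the 15 largest differences on each side above background in both organs, the 8 largest bounds on each side, in each of 54 gene lists the 6 largest and 2 smallest differences and members at least 2-fold against the list's direction, all members of the regulator, barrier and relatives lists, and the 6 closest shared genes. Clone-type and predicted-gene symbols, such as those with Rik or Gm, were set aside before the largest and closest genes were taken. The remaining symbols are called standard. Other genes named were chosen after their values were seen. Some genes and motifs that this rule or the motif search covers are not reported here, but list counts and medians include them. The members, lists and rule were chosen with earlier results of these data known. Lists are described by counts and medians, with bounds at their bound. The shares of all genes at least 2-fold higher, 21.6% in lung and 22.8% in intestine, apply to every list count at that threshold. They are not repeated beside each list.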

Additional observations from a re-analysis of the deposited data

How the results depend on the processing

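Counts of genes at least 4-fold apart stayed within 1.5 times under median centring, quantile normalization, the authors' table, both background filters and the mean over probes. Normexp lowered the lung count to 774 and kept the intestinal count within that range. At 2-fold the counts were 3168 in lung and 3339 in intestine, and at 8-fold 707 and 902. The share of lung-higher genes with esophagus and stomach nearer intestine was 58.8% under normexp and 51.1% without a filter, and the share of intestine-higher genes with both nearer lung was 54.1% under normexp and 46.6% under quantile normalization. Median centring moved the median of all genes to -0.34 and normexp to -0.23, so differences of that size have no direction of their own. No list median of at least 2-fold changed sign under any of these alternatives. Medians under 2-fold did for tuft, gastric, B cell, class II, housekeeping, cell cycle, skeletal muscle, fluid transport and relatives lists. Over lists and scaling, background and probe alternatives, 321 medians stayed within 0.597 of the value reported and 57 did not. For 733 genes of the lists and of the largest and closest differences, 4419 results under these alternatives stayed within 0.597 and 560 moved further. Of the 560, 304 were under normexp, 106 without a background filter and 91 under quantile normalization, so single folds depend on the processing. Of the named genes at least 2-fold apart, 5 changed sign. Under normexp Cldn11 was at -0.30, Myh2 at -0.34 and Pou2f3 at -0.011, and under the mean over probes Krt13 was at 0.97 and Slpi at 0.11. The cause was not tested. No paired analysis was possible because each organ has 1 array. Signal near background limits the folds of genes undetected in 1 organ.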

Other observations

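Of 16431 probes without a gene name, 10594 were above background in at least 1 organ, and the share at least 4-fold higher was 14.7% in lung and 5.81% in intestine. Other pairs of the 4 adult organs share arrays with this comparison and had between 11.6% (esophagus and stomach) and 20.3% (esophagus and intestine) of genes at least 4-fold apart.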
